A study of Mus musculus with 12 samples.

Results

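The genes described here were 39 mouse genes that build the adherens junctions, tight junctions and desmosomes of epithelia or that regulate epithelial identity, of 21883 protein-coding genes with a position in the RefSeq gene table. They were chosen by name from what their products do, not by a measured value, though with earlier results of these data known. They comprised 4 adherens junction genes, 12 tight junction genes, 11 desmosome genes, 8 regulators, and 4 genes of membrane trafficking and surface proteolysis. CUT&Tag, which cuts and tags DNA beside an antibody-bound histone mark, was carried out on mouse breast cancer organoids derived from PyMT tumours, with genotype WT, 3 days after treatment with SR2, THC or the control treatment (Ctrl). H3K4me3, found at active promoters, and H3K27me3, which Polycomb complexes place on silenced genes, were each profiled in 2 libraries per treatment, numbered by batch (1 and 2), from 500000 cells per library. PyMT is the polyoma middle T oncogene used to model breast cancer in mice; the promoter that drives it, the number of tumours or organoid lines, the doses, and what SR2 stands for are not given in the sources used here. The title of the series concerns modulation of the cannabinoid receptor CB2R, and THC is the main psychoactive cannabinoid of cannabis. The labels do not say whether the replicates were separate cultures, so p-values below reflect only how far these libraries differed, which may be technical variation.

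Epithelial cells hold together through cadherins, which are linked by catenins to actin at adherens junctions, and by plakoglobin, plakophilins and plakins to keratin at desmosomes. Claudins, occludin and their scaffolds seal the space between cells at tight junctions. Factors of the Grainyhead-like and Ovo-like families maintain these genes in many epithelia, while zinc finger repressors such as Snail and Zeb bind E-boxes in promoters such as that of E-cadherin and turn them off during epithelial to mesenchymal transition, a process studied in mammary tumours as a source of plasticity.

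The measure was the number of bp covered by the authors' H3K4me3 peaks within 1 kb on each side of a gene's start, here called covered bp, out of a window of 2001 bp. RefSeq starts were used for 22 of the 39 genes, and of several starts of a gene the one with the most covered bp. For the other 17 the gene end with more covered bp stood in for the start. Covered bp measure how broad the called mark was, not how many reads lay under it. The H3K4me3 lists held 14812 and 15190 peaks in SR2, 11924 and 13229 in THC, and 18383 and 16442 in Ctrl (replicates 1 and 2). The median summit of a peak stood at 36 and 54 stacked fragments in SR2, 21 and 44 in THC, and 62 and 58 in Ctrl, so THC replicate 1 had the fewest and the lowest peaks. In a sum over all cells, fewer cells carrying the mark and less of the mark per cell cannot be told apart. The luminal keratin genes Krt8 and Krt7 were marked in all 6 libraries, whereas Krt18 and Krt19 had 0 bp in THC replicate 1. The basal keratin genes Krt5, Krt14 and Krt17 had 0 bp there too. Of the other basal and myoepithelial markers, Acta2 and Myh11 had 0 bp in every library. Oxtr had 0 and 166 bp in SR2, 0 and 0 in THC, and 524 and 0 in Ctrl. The 4 luminal genes summed to 3775 and 4037 bp in SR2, 1458 and 3916 in THC, and 4436 and 4650 in Ctrl. The 6 basal and myoepithelial genes summed to 2522 and 4428 bp in SR2, 0 and 2707 in THC, and 4483 and 3943 in Ctrl. The endothelial genes Pecam1 and Cdh5 and the leukocyte genes Ptprc and Cd3e had 0 bp in every library. Of the marker lists of other cell types, 1 of 7 fibroblast, 1 of 5 endothelial, 1 of 6 leukocyte and 2 of 5 adipocyte genes were marked in any library. Summed covered bp were 46 and 242 in SR2, 0 and 0 in THC, and 131 and 213 in Ctrl for the fibroblast list. They were 559 and 0 in SR2, 0 and 0 in THC, and 897 and 559 in Ctrl for the endothelial list. For the leukocyte list they were 0 and 0 in SR2, 0 and 317 in THC, and 349 and 391 in Ctrl, and for the adipocyte list 1061 and 1613 in SR2, 0 and 277 in THC, and 2425 and 1990 in Ctrl. The part of depth or of other cells in the differences below was not tested.

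H3K4me3 was present at nearly all of these genes. All 39 were marked in at least 1 library, against 57.4% of protein-coding genes. Of the 39, 32 had a peak within 1 kb of the start in all 6 libraries, against 46.1% of protein-coding genes, and 38 had one in both Ctrl libraries. Tjp3, which encodes the tight junction scaffold ZO-3, was the exception. It had 5 bp in Ctrl replicate 1 and 0 bp in the other 5 libraries. The 5 bp were the edge of a peak with its summit 1444 bp upstream of the annotated start. The peaks nearest that start lay about 1 kb upstream, outside the gene, and which gene they mark was not examined. That upstream region covered 1264 and 1126 bp in SR2, 821 and 968 bp in THC, and 1255 and 1228 bp in Ctrl. Of the 38 genes marked in both Ctrl libraries, 6 lacked a peak in at least 1 of the other 4 libraries (15.8%), close to the 14.3% of all starts marked in both Ctrl libraries. These were the desmosome genes Dsc2, Dsc3, Dsg3 and Pkp3, the claudin gene Cldn8, and the Grainyhead-like gene Grhl3, and each of them lacked a peak in THC replicate 1. For all starts marked in both Ctrl libraries, 13.3% lacked one in THC replicate 1.

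**Figure D1:**
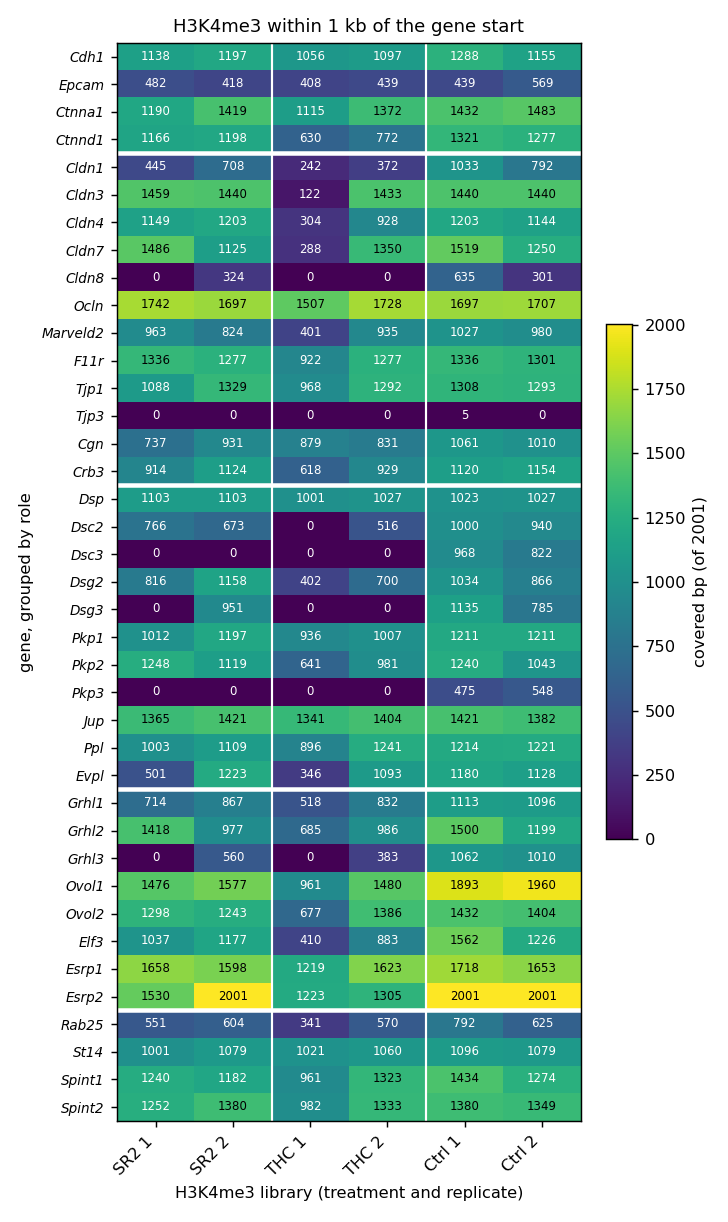
Covered bp of H3K4me3 within 1 kb of the start (colour and printed value, of 2001 bp) for the 39 genes, grouped by role, in the 6 libraries. The column of THC replicate 1 holds the most low values, and Dsc3 and Pkp3 have 0 bp in both SR2 and both THC libraries, against 475 to 968 bp in the Ctrl libraries.

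E-boxes were frequent in the promoters of these genes, a feature that the choice of genes did not use. A RefSeq promoter (GRCm38.p6, the assembly of mm10; 250 bases before the start and 50 from it, 300 in all) was held for 22 of the 39 genes. The E-box CACCTG, searched on both strands and therefore also as CAGGTG, occurred in 14 of the 22 (63.6%), against 19.5% of 17491 promoters and 16.8% of the 8280 promoters whose start was marked in all 6 libraries. At least 2 copies occurred in 8 of the 22 (36.4%), namely Epcam, Cldn4, Cldn7, Ocln, Crb3, Grhl3, Rab25 and Spint2, against 2.78% of all promoters and 2.42% of the marked ones. A copy within 50 bp of the start was found in 8 of the 22 (36.4%), against 6.02% of all promoters. The motif AACNNGTT, the core bound by Grainyhead-like factors, which is its own reverse complement, occurred in 2 of the 22 promoters (9.09%), those of Cgn and Rab25, against 4.08% of all. The median ratio of observed to expected CpG was 0.631 in the 22 promoters, against 0.596 in all promoters and 0.819 in those marked in all 6 libraries. The promoters of 6 of these 8 genes with 2 or more copies are shown as examples; they read 5′ to 3′ on the gene's strand, with capitals marking the E-boxes on either strand and, in Rab25, the Grainyhead core.
Epcam: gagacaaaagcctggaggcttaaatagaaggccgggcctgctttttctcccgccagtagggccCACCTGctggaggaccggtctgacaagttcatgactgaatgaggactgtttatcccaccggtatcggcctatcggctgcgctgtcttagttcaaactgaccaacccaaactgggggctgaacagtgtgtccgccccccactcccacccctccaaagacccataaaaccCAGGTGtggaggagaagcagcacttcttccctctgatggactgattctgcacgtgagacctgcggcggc
Cldn4: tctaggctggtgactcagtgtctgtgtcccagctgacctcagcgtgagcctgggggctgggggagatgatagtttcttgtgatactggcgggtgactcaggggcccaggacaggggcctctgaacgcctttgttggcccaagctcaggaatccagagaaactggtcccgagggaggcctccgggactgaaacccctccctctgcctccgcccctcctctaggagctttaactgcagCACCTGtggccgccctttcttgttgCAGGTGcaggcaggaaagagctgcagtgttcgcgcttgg
Cldn7: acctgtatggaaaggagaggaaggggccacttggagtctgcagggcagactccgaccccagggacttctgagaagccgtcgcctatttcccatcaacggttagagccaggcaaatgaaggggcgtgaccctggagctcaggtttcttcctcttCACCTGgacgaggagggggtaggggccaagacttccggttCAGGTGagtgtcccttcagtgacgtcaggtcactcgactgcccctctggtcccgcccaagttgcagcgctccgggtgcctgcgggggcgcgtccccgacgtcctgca
Crb3: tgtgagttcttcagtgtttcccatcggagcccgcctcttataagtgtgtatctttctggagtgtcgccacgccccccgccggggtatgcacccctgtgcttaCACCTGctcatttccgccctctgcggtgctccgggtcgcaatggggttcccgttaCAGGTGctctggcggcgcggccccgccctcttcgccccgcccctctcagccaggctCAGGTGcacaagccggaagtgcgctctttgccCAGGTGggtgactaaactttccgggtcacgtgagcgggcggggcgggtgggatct
Grhl3: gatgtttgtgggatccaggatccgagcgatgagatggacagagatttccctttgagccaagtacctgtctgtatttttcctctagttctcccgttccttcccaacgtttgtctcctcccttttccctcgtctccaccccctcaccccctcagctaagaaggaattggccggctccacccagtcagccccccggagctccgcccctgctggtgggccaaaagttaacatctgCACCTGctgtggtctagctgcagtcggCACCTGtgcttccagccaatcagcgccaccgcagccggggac
Rab25: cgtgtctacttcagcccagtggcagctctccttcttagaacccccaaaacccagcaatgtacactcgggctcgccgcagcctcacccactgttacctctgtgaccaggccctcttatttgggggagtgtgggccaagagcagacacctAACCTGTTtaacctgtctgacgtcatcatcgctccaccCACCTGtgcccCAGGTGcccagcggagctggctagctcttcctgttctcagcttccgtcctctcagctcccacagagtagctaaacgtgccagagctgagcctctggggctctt
The promoter of Epcam lies at chr17:87635729-87636028 on the plus strand, with E-boxes starting 187 and 19 bases before the start. Those of Cldn4 (chr5:134946885-134947184, minus strand) and Grhl3 (chr4:135573583-135573882, minus strand) hold copies on both sides of the start, at −14 and 11 in Cldn4 and at −19 and 8 in Grhl3, counting the start base as 0. Cldn7 (chr11:69965171-69965470, plus strand) has copies at −97 and −57. Crb3 (chr17:57061981-57062280, plus strand) has 4 copies, at −148, −93, −37 and −5. Rab25 (chr3:88548230-88548529, minus strand) has copies at −64 and −53 and the Grainyhead core at −102. Median covered bp in SR2, THC and Ctrl were 1195.25, 943.25 and 1299.75 for the 8 genes with no E-box. They were 1105, 722.75 and 1171.75 for the 6 genes with 1 copy, and 1097.5, 694.75 and 1155.25 for the 8 with 2 or more. The genes with 1 copy include Tjp3, which was nearly unmarked in the window. In the same order, the median ratio of observed to expected CpG was 0.706, 0.573 and 0.538. These differences were not tested. A match of these letters is a description of the sequence and shows no bound factor.

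The mark at these genes reached further into the gene than at most marked starts. The strand is known for 22 of the genes, of which 20 were marked in all 6 libraries (all but Tjp3 and Grhl3). The base 1000 bp downstream of the start lay under a peak at 13 and 14 of the 20 genes in SR2, 8 and 11 in THC, and 15 and 14 in Ctrl (75% and 70% in Ctrl). Among all 8280 starts of known strand marked in all 6 libraries, the shares at that distance were 19.4% and 23.5% in SR2, 10.1% and 17.2% in THC, and 30.3% and 26.2% in Ctrl. At the start base itself 14 of the 20 genes (70%) were covered in THC replicate 1, against 85.4% of the 8280, and 19 of the 20 in each Ctrl library (95%), against 97.8% and 97.2%. These differences were not tested. The whole marked region was also broad: the median over the 32 genes marked in all 6 libraries was 1313 bp in SR2, 1160.5 bp in THC and 1586.5 bp in Ctrl, and over all 10095 such starts it was 1152.5, 960.5 and 1277.5 bp. In SR2, THC and Ctrl, 40.6%, 43.8% and 53.1% of the 32 exceeded the upper quartile of all such regions.

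**Figure D2:**
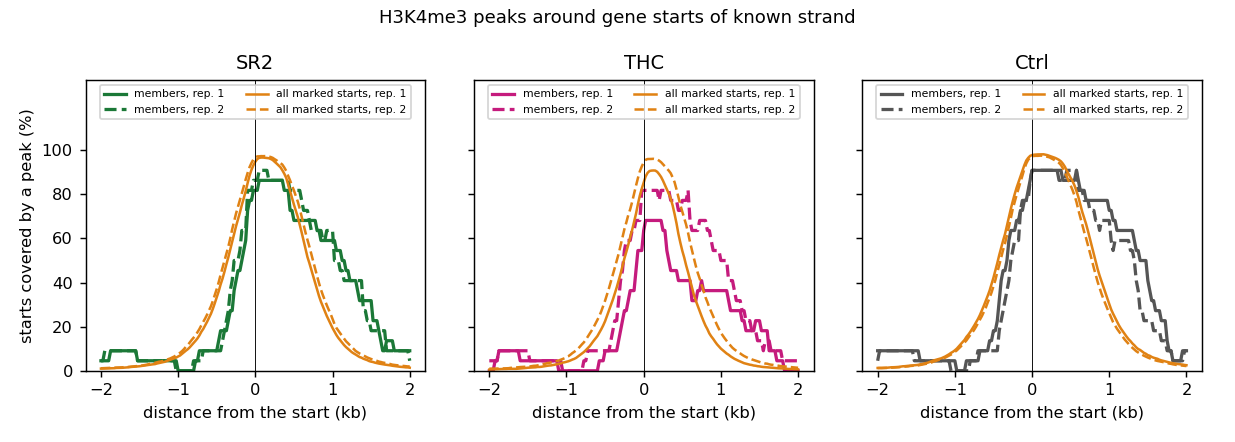
Share of starts covered by an H3K4me3 peak (vertical axis, percent) at each distance from the start (horizontal axis, kb, positive downstream) in SR2, THC and Ctrl, for the 22 genes of known strand (thick lines) and 8280 starts marked in all 6 libraries (orange); solid lines are replicate 1, dashed lines replicate 2. At 1 kb downstream the lines of the 22 genes, which include Tjp3 and Grhl3, stand above the orange lines in every panel, at 72.7% and 68.2% in Ctrl.

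Across all 39 genes, summed covered bp were lower in both treatments than in Ctrl. The sum was 38348.5 ± 2920 bp in SR2, 29954.5 ± 8391 bp in THC and 45226.5 ± 2152 bp in Ctrl (SD, n = 2 each). The ratio to Ctrl was 0.848 for SR2 (0.776 within batch 1 and 0.925 within batch 2) and 0.662 for THC (0.514 and 0.821), against 0.886 (0.815 and 0.963) and 0.719 (0.604 and 0.842) over all protein-coding genes. The difference from all genes was not tested. For the 32 genes marked in all 6 libraries the ratios were 0.909 and 0.731, against 0.917 and 0.775 over all such starts. By role, the median gene stood at 90.2% of Ctrl in SR2 and 84.7% in THC for adherens junctions. It stood at 91.3% and 62.9% for tight junctions, 86.7% and 62.3% for desmosomes, and 83.8% and 62.5% for the regulators. For trafficking and proteolysis it was 92.5% and 84.6%. These THC values average 2 libraries that differed widely. In summed covered bp, the ratio of THC to Ctrl was 0.716 within batch 1 and 0.821 within batch 2 for adherens junctions. It was 0.467 and 0.895 for tight junctions, 0.467 and 0.726 for desmosomes, and 0.464 and 0.769 for the regulators. For trafficking and proteolysis it was 0.703 and 0.991, so the order of roles differed between the batches. Both SR2 libraries were lower than both Ctrl libraries at 17 of the 38 genes marked in at least 2 libraries, against 45.8% of all 12024 starts so marked, and higher at 1, Dsp, against 2.04%. Both THC libraries were lower than both Ctrl libraries at 31 of 38 (81.6%), against 80.7% of all starts, and higher at none, against 0.108%. Both THC libraries were lower than both SR2 libraries at 12 of 38, against 46.7%, and higher at none, against 0.823%.

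Because every list shortened together, single genes were tested by limma on log2(covered bp + 200) after centring each library on its median over the 10095 starts marked in all 6, in 1 fit over all 12024 starts. Centring removed a log2 difference of −0.11 between SR2 and Ctrl, −0.32 between THC and Ctrl, and −0.21 between THC and SR2. At an adjusted p under 0.05 none of the 38 genes was called in any of the 3 comparisons, and none of the 12024 starts was (0 of 12024, 0% in each comparison). The smallest adjusted p by limma among the 38 was 0.699 in SR2 and 0.128 in THC, each set against Ctrl, and 0.242 in THC set against SR2. At an unadjusted p under 0.05, 2 of 38 (Dsc3 and Pkp3) were narrower in SR2 than in Ctrl, against 3.15% of all starts, and none was wider, against 0.349%. In THC against Ctrl 9 were narrower (Ctnnd1, Cldn1, Cldn8, Dsc2, Dsc3, Dsg3, Pkp3, Elf3 and Ovol1), against 11.5%, and 4 wider (Ocln, Dsp, Jup and St14), against 8.03%. In THC against SR2 2 were narrower (Ctnnd1 and Dsg2), against 6.29%, and 1 was wider (Ppl), against 2.71%. At the 38 genes the median log2 change was −0.03 in SR2 and −0.20 in THC, each set against Ctrl, where all starts had 0.00 and −0.03. For THC set against SR2 it was −0.03 at the 38 genes and −0.01 at all starts. With the centred values, both SR2 libraries were lower than both Ctrl libraries at 10 genes and higher at 9 (20.1% and 23.4% of all starts), and both THC libraries were lower than both Ctrl libraries at 16 and higher at 10 (28.2% and 25.7%). Both THC libraries were lower than both SR2 libraries at 7 and higher at 7 (18.6% and 21.5%), but 2 of the 7 higher ones, Dsc3 and Pkp3, had 0 bp in all 4 libraries. The counts of calls turned on single THC libraries: without THC replicate 2, 16 of the 38 genes passed the adjusted p in THC against Ctrl, 5 of them wider, among 3416 of 12012 starts, and 9 passed in THC against SR2 among 2541, with the lone THC library assumed to vary like the other groups. Without THC replicate 1, 49 and 26 starts passed and none of them was at these genes.

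**Figure D3:**
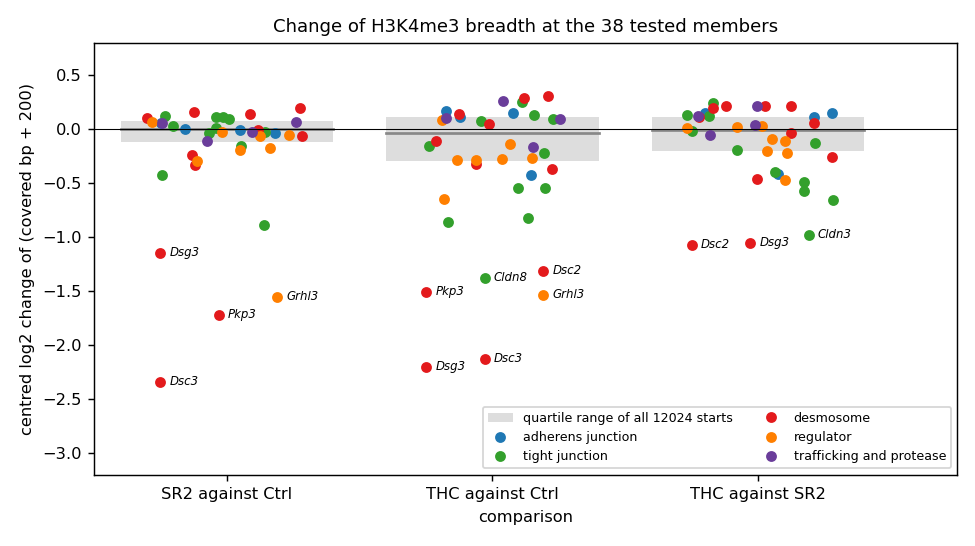
Centred log2 change of (covered bp + 200) at the 38 tested genes (points, coloured by role; horizontal jitter has no meaning) in the 3 comparisons, with the range between the quartiles of all 12024 starts in grey and their median as a line. Most points lie near the grey band, and the named points below −0.95 are desmosome genes, claudin genes and Grhl3.

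At the adherens junction, Cdh1, which encodes E-cadherin, kept its mark in all 6 libraries. It had 1138 and 1197 bp in SR2, 1056 and 1097 bp in THC, and 1288 and 1155 bp in Ctrl, so both THC libraries lay below both Ctrl libraries, and SR2 overlapped Ctrl. After centring the log2 change was 0.05 (SE 0.09) for SR2 and 0.16 (SE 0.09) for THC against Ctrl. Both SR2 and both THC libraries then lay above both Ctrl libraries, as at 23.4% and 25.7% of all starts. Epcam, which encodes an adhesion molecule of simple epithelia and whose promoter with 2 E-boxes is shown above, had the fewest covered bp in Ctrl of the genes marked in all 6 libraries: 482 and 418 bp in SR2, 408 and 439 bp in THC, and 439 and 569 bp in Ctrl. The groups overlapped, and no Epcam peak covered a base upstream of the start in any library. Its whole region spanned 993 and 812 bp in SR2, 721 and 833 bp in THC, and 1017 and 961 bp in Ctrl.

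Ctnnd1 encodes p120 catenin, which stabilises cadherins at the membrane. It had 1166 and 1198 bp in SR2, 630 and 772 bp in THC, and 1321 and 1277 bp in Ctrl. Both THC libraries stood well below the other 4, with a centred log2 change of −0.42 against Ctrl (SE 0.08, adjusted p = 0.140 by limma) and −0.41 against SR2 (SE 0.08, adjusted p = 0.242 by limma). Ctnna1, which encodes α-catenin, the link to actin, had 1190 and 1419 bp in SR2, 1115 and 1372 bp in THC, and 1432 and 1483 bp in Ctrl, lower in all 4 treated libraries than in Ctrl and with wide gaps between replicates. After centring, both THC libraries of Ctnna1 lay above both Ctrl libraries, with a log2 change of 0.11 (SE 0.08). Its window also holds the predicted gene Gm46617.

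At the tight junction, the claudin genes differed among themselves. Cldn1 had 445 and 708 bp in SR2, 242 and 372 bp in THC, and 1033 and 792 bp in Ctrl. Both SR2 libraries lay below both Ctrl libraries, as at 45.8% of all starts, and both THC below both SR2 libraries, as at 46.7%. The share of all starts with both patterns was not counted. The centred log2 change of Cldn1 was −0.82 for THC against Ctrl (SE 0.24, adjusted p = 0.238 by limma) and −0.42 for SR2 against Ctrl (SE 0.24). Cldn8 had 0 and 324 bp in SR2, 0 bp in both THC libraries, and 635 and 301 bp in Ctrl, and its peaks were low everywhere, with summits of 9 fragments in SR2 replicate 2 and of 10 in each Ctrl library. The log2 change of Cldn8 for THC against Ctrl was −1.38 (SE 0.56, adjusted p = 0.255 by limma), a size that follows from the pseudocount where a group is at 0, and after quantile normalisation it was 0.026.

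Cldn3, Cldn4 and Cldn7, singled out after their values were seen, had THC replicate 1 far below the other 5 libraries. Cldn3 had 1459 and 1440 bp in SR2, 122 and 1433 bp in THC, and 1440 bp in both Ctrl libraries. Cldn4 had 1149 and 1203 bp in SR2, 304 and 928 bp in THC, and 1203 and 1144 bp in Ctrl. Cldn7 had 1486 and 1125 bp in SR2, 288 and 1350 bp in THC, and 1519 and 1250 bp in Ctrl. In THC replicate 1 all 3 genes kept a peak, but it lay wholly downstream of the start, with 0 bp covered on the upstream side. The promoter bases shown for Cldn4 and Cldn7 end 50 bases into the gene and so lay outside the peaks of that library. Cldn3 and Cldn4 lie 39.3 kb apart on chromosome 5.

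The other tight junction genes were marked in all 6 libraries, apart from Tjp3 above. Ocln, which encodes occludin, had some of the broadest marks, 1742 and 1697 bp in SR2, 1507 and 1728 bp in THC, and 1697 and 1707 bp in Ctrl, and the groups overlapped. Its centred log2 change for THC against Ctrl was 0.25 (SE 0.08, adjusted p = 0.238 by limma), but −0.07 without centring. F11r, which encodes the junctional adhesion molecule JAM-A, had 1336 and 1277 bp in SR2, 922 and 1277 bp in THC, and 1336 and 1301 bp in Ctrl, with THC replicate 1 alone set apart. Crb3, which encodes a polarity protein of the Crumbs complex and whose promoter holds 4 E-boxes, had 914 and 1124 bp in SR2, 618 and 929 bp in THC, and 1120 and 1154 bp in Ctrl. Both THC libraries of Crb3 lay below both Ctrl libraries. Over Tjp1 (ZO-1), Cgn (cingulin) and Marveld2 (tricellulin), covered bp ran from 737 to 1329 in SR2, 401 to 1292 in THC and 980 to 1308 in Ctrl.

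Among the desmosome genes, Dsc3 had no peak at all outside Ctrl. Dsc3 encodes a desmocollin, a desmosomal cadherin of basal and stratified epithelia, and it had 0 bp in both SR2 and both THC libraries, against 968 and 822 bp in Ctrl. No peak lay anywhere in the marked region (chr18:20001029-20002377, mm10) in the 4 treated libraries. The centred log2 change of Dsc3 was −2.34 for SR2 against Ctrl (SE 0.36, adjusted p = 0.699 by limma) and −2.13 for THC against Ctrl (SE 0.36, adjusted p = 0.128 by limma). Its Ctrl summits were modest, 17 and 21 fragments, where the lowest summits called in the treated libraries were 6 in each SR2 library, and 5 and 7 in THC. With each list reduced to its 11924 strongest peaks, the length of the shortest list, Dsc3 no longer had a peak in both Ctrl libraries.

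Pkp3 encodes a plakophilin, which anchors desmosomal cadherins to plakins. It too had 0 bp within 1 kb in both SR2 and both THC libraries, against 475 and 548 bp in Ctrl, but its region was marked in every library. The whole region (chr7:141078682-141080974, mm10) had 1107 and 1279 bp covered in SR2, 1162 and 1532 bp in THC, and 2220 and 2199 bp in Ctrl. The edge nearest the gene end used as the start lay 1473 and 1233 bp away in SR2, 1274 and 1213 bp in THC, and 526 and 453 bp in Ctrl. The Pkp3 peak was thus present throughout, and shorter on one side, in all 4 treated libraries. In the window the log2 change was −1.72 for SR2 (SE 0.38, adjusted p = 0.732 by limma) and −1.51 for THC (SE 0.38, adjusted p = 0.213 by limma), and over the whole region it was nearer 0, at −0.67 and −0.29.

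Dsg3 and Dsc2 varied more between replicates. Dsg3, which encodes a desmoglein of stratified epithelia, had 0 and 951 bp in SR2, 0 bp in both THC libraries, and 1135 and 785 bp in Ctrl. The whole Dsg3 region had 272 and 1265 bp in SR2, 0 and 445 bp in THC, and 2335 and 1553 bp in Ctrl. Its log2 change was −1.15 for SR2 (SE 0.77) and −2.20 for THC against Ctrl (SE 0.77, adjusted p = 0.239 by limma). Dsc2 is a desmocollin gene more widely expressed in epithelia. It had 766 and 673 bp in SR2, 0 and 516 bp in THC, and 1000 and 940 bp in Ctrl. For THC against Ctrl the log2 change of Dsc2 was −1.31 (SE 0.50, adjusted p = 0.243 by limma). It was −0.51 without THC replicate 1 and −2.10 without THC replicate 2. Dsg2, the desmoglein gene of simple epithelia, had 816 and 1158 bp in SR2, 402 and 700 bp in THC, and 1034 and 866 bp in Ctrl, with both THC libraries lowest and a log2 change of −0.46 for THC against SR2 (SE 0.18, adjusted p = 0.540 by limma), which was −0.30 without SR2 replicate 2 and also without THC replicate 1. Dsc2 and Dsc3 lie 57.1 kb apart, and Dsg2 and Dsg3 47.8 kb apart, in the desmosomal cadherin cluster of chromosome 18.

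Within 1 kb, the plaque genes Dsp and Jup were covered over the whole downstream side of the window (1000 bp) in all 6 libraries, so their covered bp there could differ only upstream. Dsp, which encodes desmoplakin, the link to keratin, had 1103 bp in both SR2 libraries, 1001 and 1027 bp in THC, and 1023 and 1027 bp in Ctrl. Jup, which encodes plakoglobin, had 1365 and 1421 bp in SR2, 1341 and 1404 bp in THC, and 1421 and 1382 bp in Ctrl, and the groups overlapped. The whole region of Jup spanned 2126 and 2876 bp in SR2, 1451 and 2477 bp in THC, and 2913 and 2838 bp in Ctrl, and that of Dsp 1752 and 1797 bp in SR2, 1609 and 1676 bp in THC, and 1752 and 1756 bp in Ctrl, so for both genes THC lay below Ctrl over the whole region. After centring, THC against Ctrl gave 0.30 for Dsp (SE 0.10, adjusted p = 0.238 by limma) and 0.29 for Jup (SE 0.08, adjusted p = 0.238 by limma); without centring they were −0.01 and −0.03, and over the whole region that of Jup was −0.19. The value of Dsp was 0.20 without THC replicate 1. Ppl, which encodes periplakin, had 1003 and 1109 bp in SR2, 896 and 1241 bp in THC, and 1214 and 1221 bp in Ctrl, and a log2 change of 0.21 for THC against SR2 (SE 0.08, adjusted p = 0.532 by limma) although the uncentred values overlapped. Over Pkp1, Pkp2 and Evpl, covered bp ran from 501 to 1248 in SR2, 346 to 1093 in THC and 1043 to 1240 in Ctrl, and the lowest values of SR2 and THC were those of Evpl in replicate 1.

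**Figure D4:**
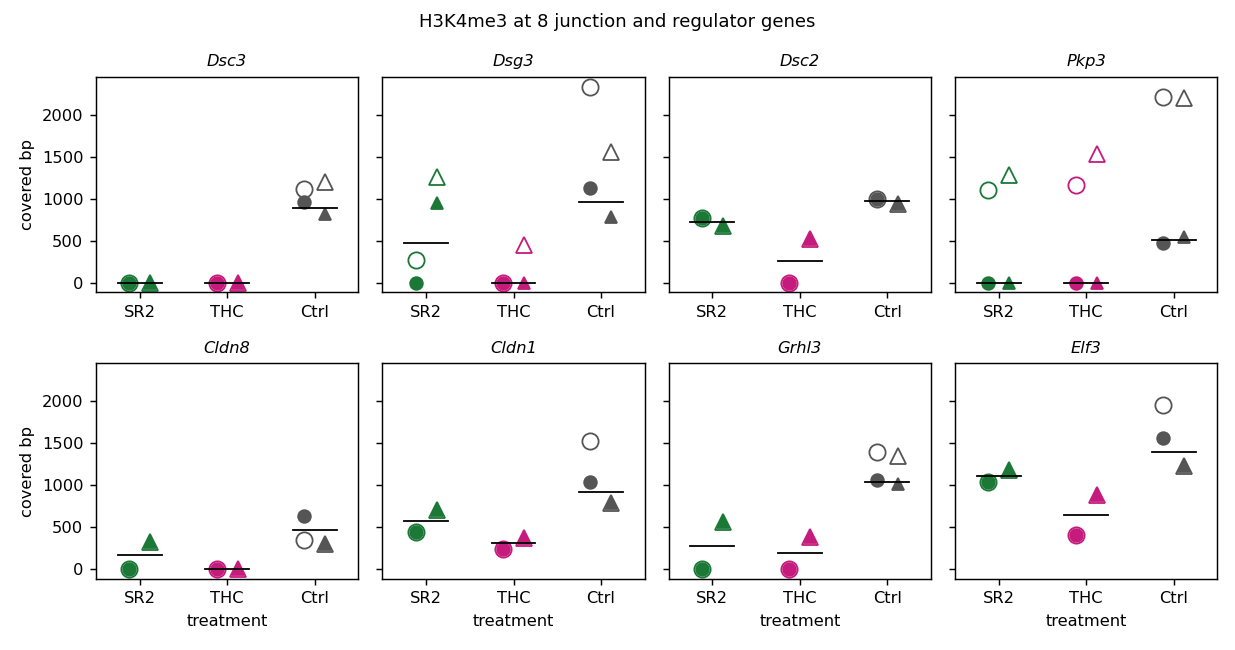
Covered bp (vertical axis) at 8 genes by treatment: filled symbols count the window within 1 kb of the start, open symbols the whole marked region the gene was assigned, circles replicate 1, triangles replicate 2, and lines the window mean. Dsc3 is at 0 bp in SR2 and THC by both counts, whereas the Pkp3 region keeps 1107 to 1532 bp in those libraries; the open circle of Cldn8 in Ctrl is below the filled one because its window holds a second peak.

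Among the regulators, Grhl3 was the least marked after treatment. Grhl3 encodes a Grainyhead-like factor of epidermal barrier formation, and it had 0 and 560 bp in SR2, 0 and 383 bp in THC, and 1062 and 1010 bp in Ctrl. In both treatments replicate 1 had no peak and replicate 2 stood below both Ctrl libraries. The log2 change was −1.56 for SR2 and −1.54 for THC against Ctrl (SE 0.70 each), and neither passed an unadjusted p under 0.05 by limma (adjusted p = 1.00 and 0.285). The Ctrl peaks of Grhl3 (chr4:135572293-135573693 over both libraries, mm10) covered the start in the promoter shown above. The peak of THC replicate 2 began 478 bp downstream of the start and ran on into the gene. That peak was weak, at percentile 0.144 of its list by the authors' −log10 q (1.38). Grhl1 and Grhl2, relatives of Grhl3, were marked in all 6 libraries. Grhl1 had 714 and 867 bp in SR2, 518 and 832 bp in THC, and 1113 and 1096 bp in Ctrl. Grhl2, the main Grainyhead-like gene of simple epithelia, had 1418 and 977 bp in SR2, 685 and 986 bp in THC, and 1500 and 1199 bp in Ctrl, with both THC libraries below both Ctrl libraries.

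Elf3, which encodes an ETS factor of epithelial differentiation, had 1037 and 1177 bp in SR2, 410 and 883 bp in THC, and 1562 and 1226 bp in Ctrl. THC against Ctrl gave a log2 change of −0.65 (SE 0.20, adjusted p = 0.238 by limma), which was −0.35 without THC replicate 1. Ovol1, which encodes an Ovo-like repressor of mesenchymal genes, had 1476 and 1577 bp in SR2, 961 and 1480 bp in THC, and 1893 and 1960 bp in Ctrl. All 4 treated libraries of Ovol1 lay below both Ctrl libraries, with −0.29 for THC against Ctrl (SE 0.10, adjusted p = 0.239 by limma). The value of Ovol1 moved with the setting, to −0.14 without THC replicate 1, −0.014 within 0.5 kb of the start and −1.57 with peaks of a −log10 q of at least 5. Ovol2, of the same family, had 1298 and 1243 bp in SR2, 677 and 1386 bp in THC, and 1432 and 1404 bp in Ctrl, with only THC replicate 1 far from the rest.

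The splicing regulators Esrp1 and Esrp2, which maintain epithelial splice forms, had some of the broadest marks of all. Esrp1 had 1658 and 1598 bp in SR2, 1219 and 1623 bp in THC, and 1718 and 1653 bp in Ctrl. Esrp2 filled the window of 2001 bp in SR2 replicate 2 and in both Ctrl libraries, and had 1530 bp in SR2 replicate 1 and 1223 and 1305 bp in THC. Both THC libraries of each gene were below both Ctrl libraries in covered bp, but after centring both THC libraries of Esrp1 lay above both Ctrl libraries (log2 change 0.09, SE 0.08). Because the Esrp2 window was full in Ctrl, its whole region is more informative, with 2806 and 3338 bp in SR2, 1685 and 2309 bp in THC, and 3363 and 3476 bp in Ctrl.

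In trafficking and surface proteolysis, Rab25, a small GTPase gene of apical recycling whose promoter holds 2 E-boxes and the Grainyhead core, had narrow marks, 551 and 604 bp in SR2, 341 and 570 bp in THC, and 792 and 625 bp in Ctrl. All 4 treated libraries of Rab25 lay below both Ctrl libraries. The centred log2 change of Rab25 was −0.11 for SR2 and −0.17 for THC against Ctrl (SE 0.21 each). After centring, neither treatment stayed wholly below Ctrl at this gene. St14, which encodes the membrane protease matriptase, had 1001 and 1079 bp in SR2, 1021 and 1060 bp in THC, and 1096 and 1079 bp in Ctrl. Its whole region spanned 1001 and 1223 bp in SR2, 1021 and 1361 bp in THC, and 1524 and 1438 bp in Ctrl, with all 4 treated libraries below both Ctrl libraries. In the window its centred change for THC against Ctrl was 0.26 (SE 0.10, adjusted p = 0.240 by limma), but −0.05 without centring and 0.17 without THC replicate 1. Spint1 and Spint2, which encode the inhibitors of matriptase HAI-1 and HAI-2, ran from 1182 to 1380 bp in SR2, 961 to 1333 bp in THC and 1274 to 1434 bp in Ctrl.

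With a gene called Ctrl-only if both Ctrl libraries marked it and both libraries of a treatment did not, 2 of 38 genes (Dsc3 and Pkp3) were Ctrl-only against SR2, where 1.63% of all starts were, and 4 of 38 (Cldn8, Dsc3, Dsg3 and Pkp3) against THC, where 5.67% were. None of the 33 genes marked in both SR2 libraries lacked a peak in both THC libraries, where 2.40% of all starts did. No gene of the 39 was the reverse, marked in both libraries of SR2 or THC but unmarked in Ctrl, nor marked in THC but unmarked in SR2; such starts made up 0.0179% for SR2 and 0% for THC set against Ctrl, and 0.0296% for THC set against SR2. When the whole region was counted in place of the window, Dsc3 alone was Ctrl-only against SR2, and Cldn8 and Dsc3 were against THC. Both comparisons share the Ctrl libraries, so Dsc3 and Pkp3 appearing in both is not a separate observation for each. Over the lists cut to 11924 peaks, Dsg3 and Pkp3 were Ctrl-only in both comparisons.

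Few H3K27me3 peaks lay at these genes, and few lay at any start. The broad peak lists were short, with 840 and 157 peaks in SR2, 984 and 70 in THC, and 2712 and 387 in Ctrl. Within 1 kb of a start, Ctnna1 had 257 bp in SR2 replicate 1, where 1.69% of all starts were marked, and F11r had 299 bp in THC replicate 1, where 1.68% were. SR2 replicate 2 and THC replicate 2 marked none of the 39, where 0.155% and 0.0183% of all starts were marked. No library of Ctrl marked any of the 39 either, although 3.97% of all starts were marked in Ctrl replicate 1 and 0.366% in Ctrl replicate 2. Both peaks were weak, with the authors' −log10 q of 2.77 at Ctnna1 and 3.21 at F11r, and neither was found in the other replicate. Another peak, of 292 bp, lay in the H3K4me3 region upstream of Tjp3, outside the gene, in THC replicate 1. Apart from Tjp3, the genes without an H3K4me3 peak within 1 kb in some SR2 or THC library were Dsc2, Dsc3, Dsg3, Pkp3, Cldn8 and Grhl3. These had no H3K27me3 peak over the gene or its 5 kb of flank in any library. Of all genes, 2.96% and 0.503% had one in SR2, 3.07% and 0.137% in THC, and 7.92% and 1.11% in Ctrl. The read depth of the H3K27me3 libraries is unknown, so a missing peak does not show that the mark was absent.

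A list of 45 other junction genes, none of them among the 39, was measured in the same way. Of the 45, 37 had a peak in at least 1 library, 32 had one in all 6, and 34 could be tested. None passed the adjusted p in any comparison, and at an unadjusted p under 0.05 by limma 1 of the 34 was narrower in SR2 than in Ctrl (3.15% of all starts), 4 were narrower and 6 wider in THC than in Ctrl (11.5% and 8.03%), and 1 was wider in THC than in SR2 (2.71%). Summed covered bp were 36686 ± 1536 in SR2, 32336 ± 3991 in THC and 42040 ± 2277 in Ctrl (SD, n = 2 each), ratios to Ctrl of 0.873 and 0.769. Perp encodes a desmosomal membrane protein. It had 687 and 1000 bp in SR2, 436 and 577 bp in THC, and 1355 and 1222 bp in Ctrl. Its log2 change was −0.42 for SR2 (SE 0.15, adjusted p = 1.00 by limma) and −0.76 for THC against Ctrl (SE 0.15, adjusted p = 0.159 by limma). Gja1, a connexin gene, was also among the 4, with 906 and 471 bp in SR2, 339 and 406 bp in THC, and 1083 and 1124 bp in Ctrl, and a log2 change of −0.87 for THC against Ctrl (SE 0.28, adjusted p = 0.238 by limma). The 6 wider genes were Amotl2, Itga6, Lsr, Mpp5, Pkp4 and Vcl, with centred log2 changes of 0.17 to 0.26 for THC against Ctrl. Over the 34 tested genes the median log2 change in that comparison was 0.05. The junction genes Ctnnb1 (β-catenin) and Cdh3 (P-cadherin) were marked in every library, with 1157 to 1376 bp and 944 to 1268 bp.

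**Figure D5:**
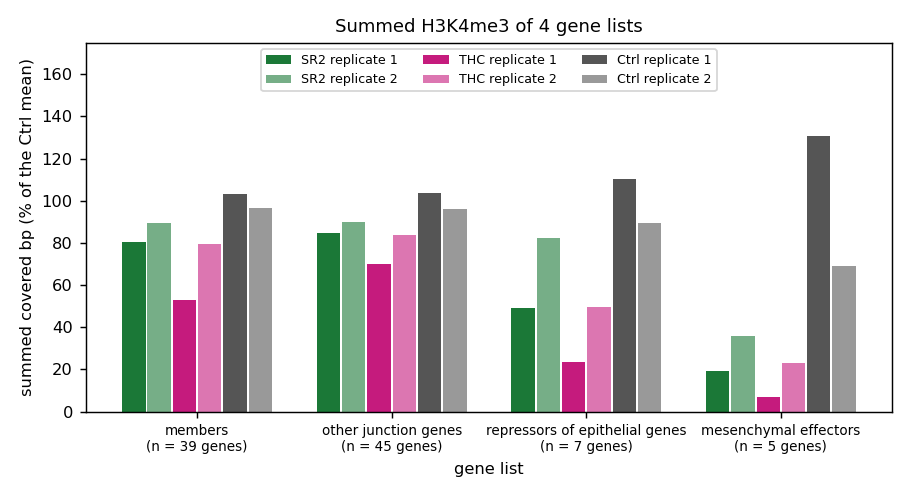
Summed covered bp of H3K4me3 in each library as a percentage of the Ctrl mean (bars, starting at 0) for the 39 genes (members), 45 other junction genes, 7 repressors of epithelial genes and 5 mesenchymal effectors. The 39 genes stand at 80.2% and 89.4% in SR2 and 53.1% and 79.4% in THC. The mesenchymal effectors stand at 19.3% and 35.9% in SR2, 7.09% and 22.9% in THC, and 131% and 69.3% in Ctrl. None of the effectors was marked in all 6 libraries, against 32 of the 39 genes.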

How the data were processed

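The 12 deposited files were peak lists in mm10 coordinates, 1 per library, which the authors called per sample: narrow peaks for H3K4me3 and broad peaks for H3K27me3. Each deposited line gives positions, a score, a fold enrichment (a ratio to the caller's local background), a −log10 p and a −log10 q, all of them the authors' own values. Tools named in the submitters' processing notes, with no roles given, are MACS3, bedtools, deepTools, Picard, SAMtools 1.8, Bowtie2 2.5.4 and cutadapt 5.2.

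Read totals are not in the lists. Summit pileups were recovered as whole numbers from each deposited −log10 p with its fold enrichment, for at least 99.978% of H3K4me3 peaks within a relative tolerance of 0.0001. The start of a gene was the RefSeq start of the promoter table for 22 of the 39 genes and 17491 genes in all. Where a gene had several such starts, that with the most covered bp summed over the H3K4me3 libraries was taken, also for the promoter sequence. For the other 17, whose strand and start were not held, the start was taken as the gene end with more H3K4me3. Where the start was known this gene-end rule took the 5′ end at 9369 of 9793 genes (95.7%). The 17 were Cdh1, Ctnna1, Cldn8, Dsc2, Dsc3, Dsg2, Dsg3, Pkp1, Pkp2, Pkp3, Ppl, Evpl, Grhl2, Ovol1, Esrp1, Esrp2 and St14.

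Covered bp within 1 kb were tested with limma 3.58.1 (R 4.3.3, trend) on log2(covered bp + 200) in 1 fit of 6 libraries and 12024 starts marked in at least 2, with Benjamini-Hochberg adjustment and a threshold of 0.05. The fit was checked on simulated data. For genes at 0 bp in a group the size of the change follows from the pseudocount. Samples were grouped by the labels, and the replicate number is the batch number, which pairs the samples. The correlation of same-numbered deviations was −0.125 for SR2 and Ctrl, 0.0086 for THC and Ctrl and 0.0959 for THC and SR2. The genes, gene lists and tests were chosen with earlier results of these data known. Values are given in full for genes lacking a peak in some library, genes at an unadjusted p under 0.05, genes with an H3K27me3 peak, the 3 broadest and the 3 narrowest in Ctrl among those marked in all 6 libraries, and Cdh1, Epcam, Grhl2, Ovol2 and Esrp1; Crb3, Grhl1, Cldn3, Cldn4 and Cldn7, and Ctnnb1, Cdh3 and Snai2 of the other lists, were added after their values were seen. Alternatives were pseudocounts, centring, filters, window sizes, peak cuts, the replicate block and leaving out each library.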

Additional observations from a re-analysis of the deposited data

How the results depend on the processing

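Of 321 values recomputed for 18 gene changes, 303 kept their direction and side of the threshold, and 7, of 5 genes, changed sign. The rest crossed the threshold, all of them in the fit without THC replicate 2, where THC is a single library. The calls over all starts were 0 in each comparison. With equal numbers of peaks they were 2 for THC set against Ctrl, and 1 for THC set against SR2. Leaving out single libraries gave 0 to 3416 and 0 to 2541, with the highest counts when THC replicate 2 was left out (49 and 26 without THC replicate 1), and 0 throughout for SR2 against Ctrl. With the replicate block the calls were 0 in all 3 comparisons, so it changed no call. A crossed pairing of SR2 and Ctrl, chosen after seeing the data, also gave 0. The Ctrl-only genes against SR2 (2) became 1 within 0.5 kb, within 2 kb and over the whole region, and ran from 2 to 5 when libraries were left out, a check added after seeing the data, with 5 when SR2 replicate 2 was left out. Those against THC (4) became 2 with equal numbers of peaks, within 2 kb and over the whole region, and ran from 4 to 6. The genes unmarked in THC but marked in SR2 (0) ran from 0 to 2, with 2 when SR2 replicate 1 and 1 when THC replicate 2 was left out. The 2 genes with H3K27me3 became 0 at a −log10 q of at least 5. In THC against Ctrl, Cldn8 changed sign after quantile normalisation (0.026). Without centring Ocln (−0.068), Dsp (−0.013), Jup (−0.027) and St14 (−0.054) did, and Jup also within 2 kb (−0.080) and over the whole region (−0.19). The cause was not tested. The read depth behind the peaks is unknown, and the lowest median summit was that of THC replicate 1, at 21 stacked fragments.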

Other observations

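Genes whose products oppose epithelial identity were measured in the same way. Of 7 repressors of epithelial genes, 2 were marked in all 6 libraries, and their summed covered bp were 2757 and 4627 in SR2, 1323 and 2772 in THC, and 6187 and 5031 in Ctrl. Snai1, which encodes Snail, had 417 and 276 bp in SR2, 0 bp in both THC libraries, and 358 and 351 bp in Ctrl. Twist2 had 305 and 590 bp in SR2, 0 bp in both THC libraries, and 877 and 1148 bp in Ctrl. Zeb1 had 485 and 1052 bp in SR2, 0 and 398 bp in THC, and 1021 and 784 bp in Ctrl. Snai2, which encodes Slug, was marked throughout, with 1253 and 1419 bp in SR2, 978 and 1109 bp in THC, and 1516 and 1419 bp in Ctrl. None of the 6 tested repressors passed the adjusted p by limma in any comparison. At an unadjusted p under 0.05, 3 of the 6 were narrower in THC than in Ctrl (11.5% of all starts) and none in SR2 than in Ctrl (3.15%). Snai1, Twist2 and Zeb1 were narrower in THC than in SR2 (6.29% of all starts).

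Of 5 mesenchymal effector genes, 4 were marked in both Ctrl libraries. Cdh2, which encodes N-cadherin, had 0 bp in both SR2 libraries, 233 and 0 bp in THC, and 1381 and 498 bp in Ctrl. Fn1, which encodes fibronectin, had 0 bp in both SR2 libraries, 0 and 337 bp in THC, and 1024 and 649 bp in Ctrl. Vim, which encodes vimentin, had 636 and 732 bp in SR2, 0 and 417 bp in THC, and 1397 and 300 bp in Ctrl, so the groups overlapped. Sparc, an extracellular matrix gene, had 0 and 447 bp in SR2, 0 bp in both THC libraries, and 496 and 830 bp in Ctrl. None of the 4 tested effectors passed the adjusted p by limma in any comparison. At an unadjusted p under 0.05, 2 of the 4 (Cdh2 and Fn1) were narrower in SR2 than in Ctrl (3.15% of all starts). In THC against Ctrl 3 were narrower (Cdh2, Fn1 and Sparc; 11.5% of all starts), and in THC against SR2 none was (6.29%). The summed covered bp of the 5 effectors relative to Ctrl were 0.276 for SR2 (0.148 within batch 1 and 0.518 within batch 2). They were 0.150 for THC (0.0542 and 0.331), and the Ctrl sums themselves were 4298 and 2277 bp. The ratios were lower than at the 39 junction and identity genes (0.848 and 0.662). However, none of the 5 effectors was marked in all 6 libraries, against 32 of the 39 genes. The lists thus differed in how widely they were marked, and the difference in ratios was not tested.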
